A study of Mus musculus with 4 samples.

Results

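Peaks of a Flag-tagged Isl1-Lhx3 fusion were examined at 8 core genes of the Hippo pathway: the kinase genes Lats1 and Lats2, the coactivator genes Yap1 and Wwtr1 (TAZ), and the DNA-binding partner genes Tead1, Tead2, Tead3 and Tead4. A peak was taken as a member when its maximum had one of these genes at the nearest protein-coding transcription start. There were 4 such peaks among 2454 nuclear peaks: 1 at Lats2, 2 at Wwtr1 and 1 at Tead4. Lats1, Yap1, Tead1, Tead2 and Tead3 had no assigned peak. The name of the gene set thus covers 5 genes that the peak list does not link to the fusion. Across the whole annotation, 1826 of 22367 protein-coding genes had an assigned peak (8.16%). The members were selected on the presence of a peak, and the 8 genes were proposed for the high ChIP score at Lats2, so their count of 3 of 8 is a description and nothing is read from it.

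The cells were iMN-ESCs, mouse embryonic stem cells of the A172LoxP line that carry a Tet-inducible p2Lox construct for the Flag-tagged fusion, switched on by doxycycline (Dox). There were 2 libraries with Dox at 2 µg/mL and 2 without, in 2 numbered sets, and all 4 were precipitated with anti-Flag antibody. All embryoid bodies had 2 days in 0.5 µM retinoic acid, then 4 more days in it with or without Dox, and LIF, a cytokine that activates STAT3, at 1000 units/mL for the final 16 hours. Both groups carry the transgene, and the fusion is an ectopic protein that stands in for the complex of the separate factors. The labels do not say whether the line is 1 clone. With no RNA values here, neither the cell identity nor the expression of any gene named below could be checked. Only 1 peak list covers the series, with 1 ChIP score (scale not stated), 1 background score and 1 tag count per peak or region. Library depth is therefore unknown, no value below has a spread over sets, and no p-value is given.

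As background, Isl1 and Lhx3 are LIM-homeodomain factors that together specify motor neurons, and homeodomains bind sites built on ATTA. In the Hippo pathway the upstream kinases Stk3 and Stk4 with the scaffold Sav1 activate Lats1 and Lats2. These phosphorylate Yap1 and Wwtr1, which are then held in the cytoplasm or degraded. Unphosphorylated Yap1 and Wwtr1 enter the nucleus and drive transcription with the Tead factors. In neural progenitors Yap1 and Tead activity is known for promoting proliferation.

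The sequences under the 4 maxima are given first, because their motif content differed. They are the plus strand of mm9, 200 bp each, with 100 bases before the maximum. A window at Wwp2 is added because its peak shared an arrangement of homeodomain sites with Lats2, an addition made after the values were seen. Capitals mark matches on either strand to any of 8 motifs: the LIM-homeodomain core TAATTA, the homeodomain site ATTA (TAAT on the other strand), the TEAD core CATTCC, the POU octamer ATGCAAAT, the E-box CAGCTG, the SOX site ATTGTT, the relaxed STAT site TTCNNNGAA and the strict STAT site TTCCNGGAA. Each TAATTA holds 2 overlapping homeodomain sites, and each strict STAT site is also a relaxed one. The windows lie at chr14:58351637-58351836 (Lats2), chr3:57387566-57387765 (upstream of Wwtr1), chr3:57378158-57378357 (in Wwtr1), chr6:128204616-128204815 (Tead4) and chr8:110043770-110043969 (Wwp2).
Lats2: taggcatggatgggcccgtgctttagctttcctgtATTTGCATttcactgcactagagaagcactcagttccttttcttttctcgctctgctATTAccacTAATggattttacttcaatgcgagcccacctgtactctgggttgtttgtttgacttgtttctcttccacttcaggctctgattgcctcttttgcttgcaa
Wwtr1 upstream: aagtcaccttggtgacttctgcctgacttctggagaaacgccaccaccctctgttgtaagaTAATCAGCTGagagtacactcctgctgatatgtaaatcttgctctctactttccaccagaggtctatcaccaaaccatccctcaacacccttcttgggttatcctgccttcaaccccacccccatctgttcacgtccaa
Wwtr1 intronic: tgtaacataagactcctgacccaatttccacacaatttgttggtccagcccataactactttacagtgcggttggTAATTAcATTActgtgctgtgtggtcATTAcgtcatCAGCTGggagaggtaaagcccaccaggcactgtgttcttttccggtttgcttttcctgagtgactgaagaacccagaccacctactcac
Tead4: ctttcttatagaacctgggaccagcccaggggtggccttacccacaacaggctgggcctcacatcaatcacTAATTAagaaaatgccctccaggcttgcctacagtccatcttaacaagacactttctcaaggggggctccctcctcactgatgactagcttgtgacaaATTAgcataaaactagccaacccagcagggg
Wwp2: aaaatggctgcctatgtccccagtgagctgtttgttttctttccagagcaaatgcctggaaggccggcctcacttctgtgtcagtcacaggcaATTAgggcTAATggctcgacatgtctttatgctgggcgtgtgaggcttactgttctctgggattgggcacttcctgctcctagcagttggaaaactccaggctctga

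The Lats2 peak was the strongest of the 4, and the others lay far lower in the list. Lats2, which encodes a kinase that restrains Yap1 and Wwtr1, scored 191.64, against a background score of 1.25, with 132 tags in its region (110 to 157, 95% exact Poisson interval, which here and below covers counting error only). Its score ranked 9 in the list, above 99.6% of peaks and 4.68 times the median of 40.95. The neighbours in rank were the peaks near Plekhf2 (204.22, rank 8) and in Dmxl2 (184.95, rank 10). By the tags of its region the Lats2 peak ranked 49 among peaks, where a region with several maxima counts once for each. The Lats2 region, at 1077 bp, was wider than the regions of 96.8% of peaks, for which the median was 480 bp.

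Wwtr1, the gene of the coactivator TAZ, had a peak on each side of its start, 9.41 kb apart and in separate regions. The upstream one scored 55.4, with a background score of 0.01 and 25 tags (16.2 to 36.9), and ranked 568. The intronic one scored 32.39, with a background score of 0.25 and 17 tags (9.90 to 27.2), and its rank of 2061 was shared by 40 peaks of equal score. The upstream score was 1.71 times the intronic score, whereas the tag intervals of the 2 regions overlapped. Of the 1826 genes with a peak, 417 (22.8%) had 2 or more. That count takes any assigned peaks, in the same region or not, at any distance and on either side. How often a gene had separate regions on both sides of its start was not tested.

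Tead4, one of the DNA-binding partners of Yap1, had 1 peak of score 39.34, below the median of the list, with a background score of 0 and 30 tags (20.2 to 42.8). Its rank was 1343. By the tags of its region the Tead4 peak stood above the upstream Wwtr1 peak (rank 1279 against 1589 among peaks), the reverse of their order by score. The tag intervals of the 2 overlapped.

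**Figure D1:**
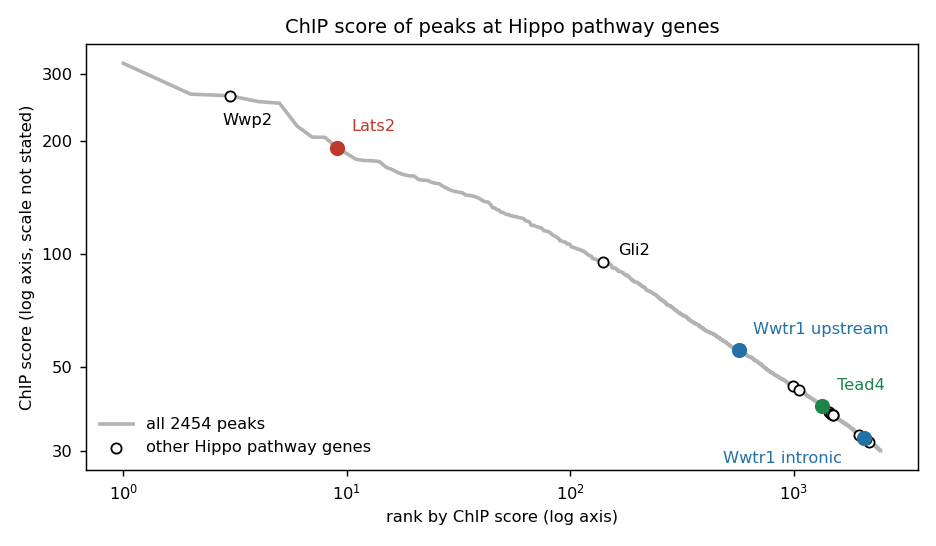
ChIP score against rank for all 2454 peaks (line), both on log axes, with the 4 peaks at Lats2, Wwtr1 and Tead4 (filled points) and the 11 peaks at other Hippo pathway genes (open points). Lats2 at rank 9 and Wwp2 at rank 3 stand at the top of the curve, while most other points lie near its lower end.

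The background score was a small part of the ChIP score at all 4 peaks: 0.652% at Lats2, 0.0181% and 0.772% at the upstream and intronic Wwtr1 peaks, and 0% at Tead4. At Lats2 the ChIP score was 153 times the background score, or 85.6 times with 1 added to each. Over the 1692 peaks with a background score above 0 the median ratio was 32.7. In all, 762 peaks (31.1%, 29.2 to 32.9, exact binomial interval) had a background score of 0, like Tead4. The library behind the background score is not given in the sources used here, so the ratio is no comparison of the libraries with and without Dox.

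All maxima at the 3 genes lay in introns except the one upstream of Wwtr1, which was intergenic. Introns held 1113 of all peaks (45.4%, 43.4 to 47.3) and intergenic sequence 1246 (50.8%, 48.8 to 52.8). The Lats2 maximum (chr14:58351488-58351987, the deposited window) was 1.40 kb downstream of the start shared by the short coding transcripts Lats2-005 and Lats2-006. It was 13.2 kb downstream of the start of Lats2-001, which has 8 exons, and lay in its intron 2. From the 5' end of the whole Lats2 record (chr14:58260914-58377225, minus strand) it was 25.5 kb. The short distance at Lats2 therefore rests on the short transcripts. The next protein-coding gene, Sap18, started 65.3 kb away, and the peak remained with Lats2 under every choice of starts tried.

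At Wwtr1 (chr3:57259571-57379832, minus strand) the upstream peak (chr3:57387417-57387916) was 7.83 kb before the nearest start. The intronic peak (chr3:57378009-57378508) was 1.49 kb after the start of Wwtr1-001, in intron 2 of both annotated transcripts. The next protein-coding gene, Commd2, started 67.9 kb from the upstream maximum. The nearest peak of another gene was 2.29 Mb away. The Tead4 peak (chr6:128204467-128204966; gene at chr6:128174306-128250841, minus strand) was in intron 2 of Tead4-001, 46.1 kb from its start and 20.9 kb from the inner start of Tead4-002. Over all peaks the median distance to a protein-coding start was 22.2 kb, and 289 (11.8%, 10.5 to 13.1) lay within 2 kb, as at Lats2 and the intronic Wwtr1 peak. Within 10 kb, 691 protein-coding genes (3.09%) had an assigned peak, Lats2 and Wwtr1 among them.

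**Figure D2:**
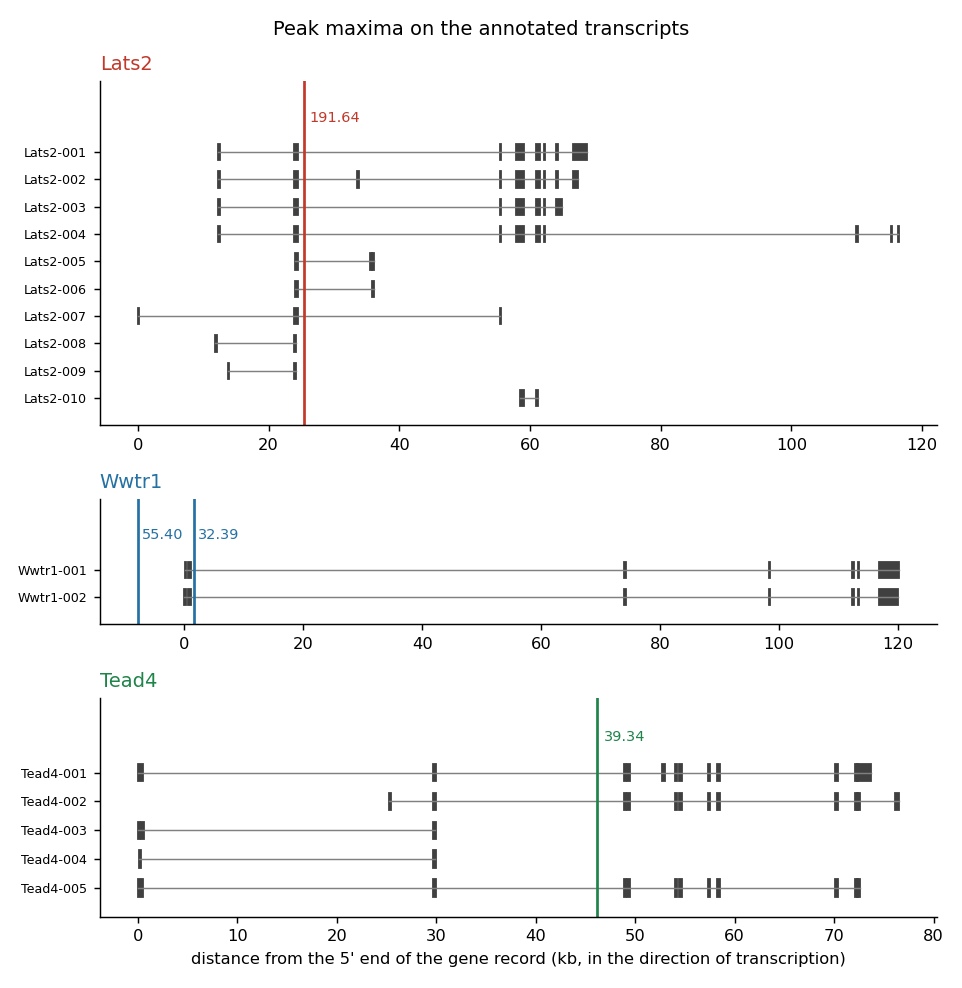
Annotated transcripts of Lats2, Wwtr1 and Tead4 (bars are exons, lines introns) against distance in kb from the 5' end of the gene record, with vertical lines at the peak maxima and their ChIP scores. The Lats2 line at 25.5 kb falls just after the exon where Lats2-005 and Lats2-006 begin, the Wwtr1 lines fall on both sides of the start, and the Tead4 line falls at 46.1 kb.

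The 5 genes without a peak differed in how far the nearest one lay. For Tead2, whose product is a TEAD factor of early neural tissue, it was 136 kb upstream and assigned to Nosip (score 31.05). For Lats1, the kinase gene paralogous to Lats2, it was 504 kb downstream and assigned to Tab2 (61.02), at -239 kb from the start of that gene. For Tead3 it was 657 kb upstream, at Stk38 (44.43), itself a gene of a kinase related to Lats1 and Lats2. For Yap1, the coactivator gene paralogous to Wwtr1, it was 1040 kb downstream and assigned to Dync2h1 (35.6). For Tead1 it was 1370 kb downstream and assigned to Rras2 (73.07). Over all protein-coding genes with a peak on their chromosome the median distance was 344 kb (quartiles 126 and 842 kb). Tead2, Lats1 and Tead3 were within these quartiles, while 79.9% of genes had a nearer peak than Yap1 and 85.9% a nearer one than Tead1. Within each paralogous pair the list thus held a peak for Lats2 but not Lats1 and for Wwtr1 but not Yap1. The list holds called peaks only, so weaker binding at the other genes would not be seen.

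The span of sequence that could bring each gene a peak also differed. The bases nearest to its starts came to 95.6 kb for Lats2, 113 kb for Wwtr1 and 75.1 kb for Tead4, and to 104 kb for Yap1, 359 kb for Tead1, 27.5 kb for Lats1, 20.6 kb for Tead3 and 20.0 kb for Tead2. The median over protein-coding genes was 45.5 kb. The 3 genes with a peak were all above that median, as were Yap1 and Tead1.

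**Figure D3:**
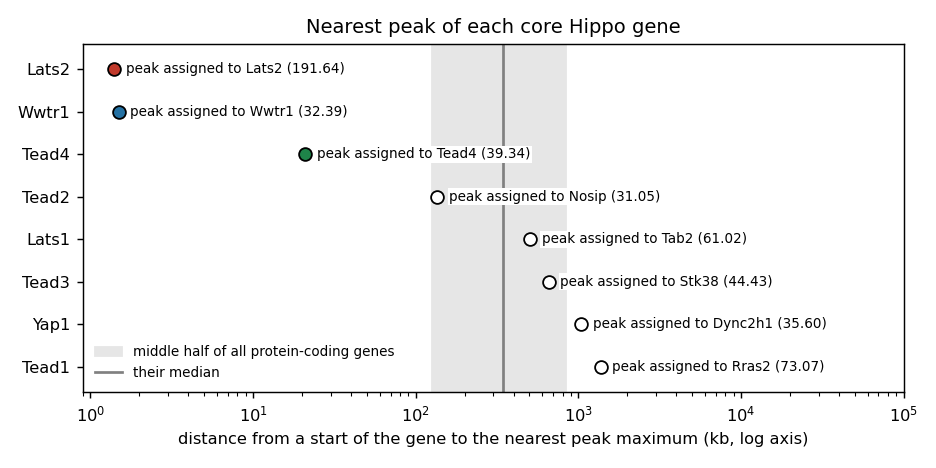
Distance in kb (log axis) from a start of each of the 8 genes to the nearest peak maximum, with the gene to which that peak was assigned and its ChIP score, against the median and quartiles of all protein-coding genes (line and band). Lats2, Wwtr1 and Tead4 (filled) lie at 1.40, 1.49 and 20.9 kb, and the other 5 at 136 kb or more.

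Lats2 lay in a stretch of chromosome 14 with many peaks. Within 1 Mb of its starts there were 11 other peaks in 9 regions, assigned to 5 other genes, with scores from 30.24 to 142.92. The median protein-coding gene had 2 peaks within 1 Mb, and 99.4% had fewer than the 12 around Lats2. The nearest was 120 kb from the Lats2 maximum, assigned to Mrp63, with a score of 30.24. Among the 186 peaks of chromosome 14 the Lats2 peak ranked 3. Within 1 Mb of their starts Wwtr1 had 2 peaks, Tead4 3, Tead2 4, Tead3 3, Lats1 2, and Yap1 and Tead1 0.

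Every one of the 4 windows printed above held the homeodomain site ATTA, and they differed in what else they held. The homeodomain site was in 2311 of all peak windows (94.2%, 93.2 to 95.1) and in 66.7% of windows of the same length 1 kb to each side. The core TAATTA was in the Tead4 window, 29 to 24 bp left of the maximum, and in the intronic Wwtr1 window, 25 to 20 bp left of it. It was not in the windows of the stronger Lats2 and upstream Wwtr1 peaks. Over the list TAATTA was in 842 windows (34.3%, 32.4 to 36.2) and in 6.50% of flanks. The intronic Wwtr1 window had most homeodomain sites, 4, against 3 at Tead4, 2 at Lats2 and 1 upstream of Wwtr1, and the median of all peaks was 3.

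At Lats2 the 2 homeodomain sites stood at the maximum itself, as ATTA then TAAT with 4 bases between, starting 8 bp left of it. The same arrangement, found after the data were seen, stood 7 bp left of the maximum at Wwp2, which had a score of 263.37 and rank 3. The 14 bases from the first homeodomain site on can be compared directly, at chr14:58351729-58351742 and chr8:110043863-110043876, with capitals for the 2 homeodomain sites and the GG after them.
Lats2 element: ATTAccacTAATGG
Wwp2 element: ATTAgggcTAATGG

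These elements were identical at 11 of 14 bases, but most of that identity follows from the selection. Wwp2 was picked for the same arrangement, so the bases of the homeodomain sites had to match, and the stretch ends with the GG that both share. Of the 4 bases between the homeodomain sites, which the selection left free, 1 was identical. The arrangement was in 32 peak windows (1.30%, 0.894 to 1.84) and in 0.591% of flanks. It did not go with high scores as such: the median of those 32 peaks was 36.00, below the 40.95 of the whole list, and after Wwp2 and Lats2 the next had a score of 137.3 (rank 43). In 10 of the 32 it was centred within 10 bp of the maximum.

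The Lats2 window also held the POU octamer, on the minus strand, 65 to 58 bp left of the maximum. The octamer was in 104 peak windows (4.24%, 3.48 to 5.11) and in 1.57% of flanks. Lats2 had the highest score of those 104, which had a median of 40.28 against 40.95 for the others. Both Wwtr1 windows held the E-box CAGCTG, a site of basic helix-loop-helix factors, which was in 342 peak windows (13.9%, 12.6 to 15.4) and in 8.92% of flanks. Upstream of Wwtr1 the E-box followed the single homeodomain site with no base between, at 39 to 30 bp left of the maximum for the pair, and in the intronic window it was 11 to 16 bp right of the maximum. An E-box together with a homeodomain site was in 313 windows (12.8%, 11.5 to 14.1).

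The TEAD core CATTCC was in 0 of the 4 windows, against 429 of all peak windows (17.5%, 16.0 to 19.0) and 10.0% of flanks. In the 500 bp windows it was present upstream of Wwtr1. Neither STAT site nor the SOX site was in any of the 4 windows. Over all peak windows these sites were also in the minority, so nothing is read from their absence. The SOX site was in 14.3% (13.0 to 15.8) and in 10.7% of flanks. The relaxed STAT site was in 5.01% (4.18 to 5.95) and in 5.85% of flanks, and the strict one in 0.733% (0.435 to 1.16) and in 0.856% of flanks. GC content ran from 44.5% at Lats2 and 46.5% in the intronic Wwtr1 window to 49.0% upstream of Wwtr1 and 50.5% at Tead4, within the quartiles of all peaks (44.5 and 51.5%).

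**Figure D4:**
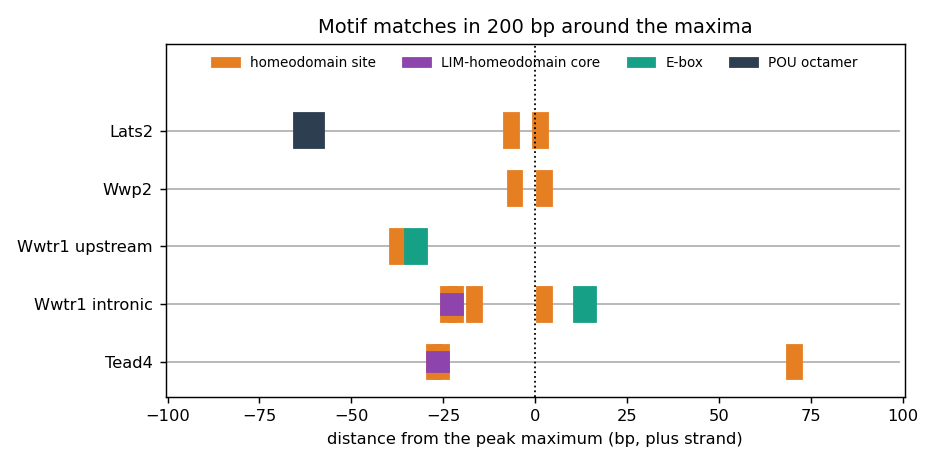
Positions of motif matches in the 200 bp around each maximum (dotted line), in bp on the plus strand, for the 4 core peaks and Wwp2. At Lats2 and Wwp2 a pair of homeodomain sites brackets or touches the maximum, at the intronic Wwtr1 peak and Tead4 the LIM-homeodomain core lies between 29 and 20 bp to the left, and E-boxes are present in both Wwtr1 windows.

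Beyond the 8 core genes, 64 other genes of the pathway were looked up, and 10 of them had a peak (15.6%), with 11 peaks in all, against 8.16% of all protein-coding genes. Wwp2 was already known to have a peak when the list was made, so the count is a description. The span of sequence nearest to the starts, given above for the core genes, is not given for these 64. Nothing is therefore read from the difference between these shares. The median score of the 11 peaks was 37.47, against 40.95 for the whole list, and 4 were above that median. Among kinases and scaffolds 1 of 11 genes (9.09%) had a peak, Stk38 (44.43), 0.344 kb upstream of its start. Stk3, Stk4, Sav1, Mob1a and Mob1b, which encode the upstream kinases, their scaffold and the Mob1 proteins that bind the Lats kinases, had none.

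Among upstream and junction proteins 4 of 18 genes (22.2%) had a peak, against 8.16% of all protein-coding genes. Nf2 (Merlin, which recruits the Lats kinases to the membrane) scored 38.01 in an intron of its own record, 1.28 kb upstream of an inner start. The angiomotin-family gene Amotl2 scored 37.20, 1.86 kb upstream of an inner start. The peak of the giant cadherin gene Fat4 (37.47) was 174 kb upstream, and that of Wwc1 (Kibra, 32.92) was 56.2 kb upstream and inside Odz2. Starts of other annotated genes that are not protein-coding lay nearer to both.

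Among inhibitors and modulators 2 of 17 genes (11.8%) had a peak, against 8.16% of all protein-coding genes. Wwp2, an E3 ubiquitin ligase gene of the NEDD4 family, had the strongest of the pathway (263.37, background score 0.31, 176 tags, 151 to 204), in an intron and 25.1 kb upstream of an inner start. The tight-junction gene Tjp1 had a peak of 43.36, 23.6 kb upstream.

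Amotl2, also listed as a Yap1 and Wwtr1 target gene, was counted above with the upstream and junction proteins. Among the other known target genes 3 of 11 (27.3%) had a peak, against 8.16% of all protein-coding genes. Gli2, a Hedgehog effector gene, had 2, of score 95.02 (rank 141, 83 tags, 66.1 to 103) at 22.5 kb upstream and 32.12 at 77.9 kb downstream in an intron. Myc had one of 37.20 at 7.47 kb downstream. Ctgf, a widely used Yap1 target gene, had one of 31.58 at 4.04 kb upstream, in an intron of the noncoding gene Gm15270, whose start was nearer. Cyr61 and Ankrd1, also widely used target genes, had none. Of 7 cofactor genes (the Vgll family, Tfap2c, Runx1 and Runx2) 0 had a peak. With a share of 8.16% over all protein-coding genes, nothing is read from the small counts by role.

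A homeodomain site was in 11 of 11 windows of these peaks, near its share of 94.2% over all peak windows. TAATTA was in 3 of them, at Wwc1 and both Gli2 peaks, against 34.3% of all peak windows. The relaxed STAT site was in 1, at Stk38, against 5.01%. In 0 of 11 were the TEAD core (17.5% of all peak windows), the octamer (4.24%), the E-box (13.9%) and the SOX site (14.3%). Nothing is read from these counts.

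**Figure D5:**
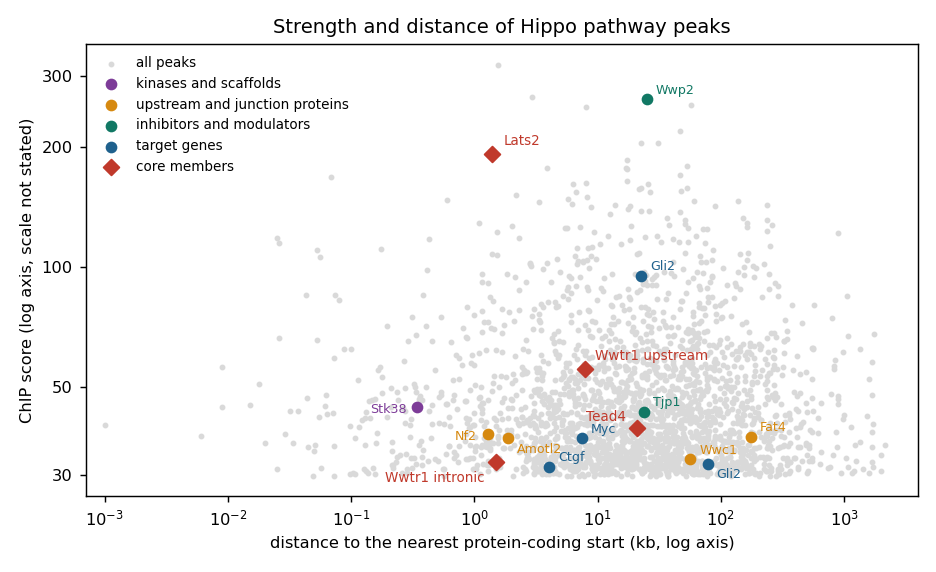
ChIP score against distance in kb to the nearest protein-coding start, both on log axes, for all peaks (grey), the 4 core peaks (diamonds) and the 11 peaks at other Hippo pathway genes, coloured by role. Wwp2, Lats2 and Gli2 stand above the rest at 263.37, 191.64 and 95.02, and the remaining peaks score 55.4 or less.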

How the data were processed

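Flag ChIP-seq libraries (n = 2 with Dox, n = 2 without) were mapped with BWA 0.5.8a to mm9, per the submitters' processing notes. How peaks were called, scored or pooled over sets is not given in the sources used here. A single list of 2455 peaks was deposited. Its ChIP score and background score are deposited scores of unstated scale, and its tags are a deposited whole-number count per region. None of the 3 value columns belongs to a library. Without a mitochondrial peak, 2454 peaks in 2301 regions were used.

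Each maximum was assigned to the nearest start of any transcript of a protein-coding gene in GENCODE M1 (Ensembl 65, NCBIM37, the build named mm9). Coordinates are 1-based and distances negative upstream. Motifs were searched on both strands in 200 bp around the maximum and in 200 bp centred 1 kb to each side. Intervals are 95% exact binomial or Poisson intervals. Of 64 other pathway genes, 2 matched by an older symbol, and 2 with several records were taken at the longest. A gene of the list is not reported here. Assignment and motif search were tested on simulated data (Python 3.11.15, SciPy 1.17.1, pysam 0.24.0).

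The 8 members and the lists were chosen with earlier results of these data known. The genes named are the 8 members, all listed pathway genes with a peak, the hosts and neighbours of the 4 peaks, and the peaks next in rank to Lats2. Other genes are named because the nearest peak was assigned to them, or as examples without one, chosen after their values were seen.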

Additional observations from a re-analysis of the deposited data

How the results depend on the processing

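Of 35 values recomputed under an alternative, 27 stayed within 1.5 times the reported count or at the same rank. The members with a peak were Lats2, Wwtr1 and Tead4 under every choice of starts, with 1 peak per region and with the middle of the region, and Lats2 and Wwtr1 alone within 10 kb or among the 50% or 25% of peaks with the highest scores. The other pathway genes with a peak fell from 10 to 5 within 10 kb of a start, to 4 among the top-scoring 50% and to 2 (Wwp2 and Gli2) among the top 25%. They were 7 with starts of all annotated genes, without Ctgf, Fat4 and Wwc1, and 9 with 1 start per gene record, without Wwp2. Of all protein-coding genes, 3.09% had an assigned peak within 10 kb, against 8.16% without that limit. No share over all genes is given for the other settings, so nothing is read from those counts. The Lats2 peak moved from rank 9 to 49 by tags, and its ratio of ChIP to background score from 153 to 85.6 with 1 added. In 100 bp windows the octamer was in 0 of the 4 peaks, since the match at Lats2 lies outside them. In 500 bp windows the TEAD core and the SOX site were each in 1. No paired analysis was possible because no column gives a value per library, and for the same reason no library could be left out. Tags per region, 17 to 132 at the 4 peaks, limit how far they can be ranked.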

Other observations

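The run CTAATGG, common to the Lats2 and Wwp2 elements, was counted after it had been seen there. It was in 153 of 2454 peak windows (6.23%, 5.31 to 7.27, exact binomial interval) and in 1.61% of flanks. Of the 10 strongest peaks 5 held it, Lats2 and Wwp2 included, and the median ChIP score was 46.30 for peaks with it and 40.95 for the whole list. These are descriptions of 1 list, with no test.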
